A study of Rattus norvegicus with 18 samples.

Results

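Iron enters a cultured fibroblast on transferrin, is reduced and carried into the cytosol, and is then used, stored in ferritin or exported. The 8 genes described here cover those steps. Tfrc, Steap3 and Slc11a2 act in uptake, Fth1 and Ftl1 in storage, Slc40a1 in export, and Aco1 and Ireb2 in the sensing of iron. They were taken by symbol from a list of iron uptake and storage genes, chosen for their function with earlier results of these data known, and all 8 had a row among the 13188 genes measured. Of the 8, 4 passed the cutoffs in the same direction in both sets of libraries that compared MYC, as did 15.8% of all genes. Tfrc and Slc40a1 rose by 3.75-fold to 5.09-fold, Fth1 fell 2.60-fold and 3.55-fold, and Steap3 fell 1.86-fold and 1.88-fold.

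Poly-A RNA was sequenced from 18 libraries of HO15.19, a Rat1 rat fibroblast line labelled myc-/-, a genotype that every group shares, controls included. Human MYC was put back by stable viral infection, and the study describes a retroviral pBabe vector, which drives MYC from an exogenous promoter. The 6-library set held myc-/- siCtrl, labelled as without human MYC and transfected with control siRNA, and myc-/- + MYC, labelled as not transfected. The table names its columns only as control and Myc, so that transfection in this set rests on the sample labels alone. The 12-library set held untransfected myc-/-, and myc-/- + MYC cells transfected with control siRNA (siCtrl) or with either of a pair of siRNAs against the aryl hydrocarbon receptor AHR (siAHR-2, siAHR-5). Each of the 6 groups had 3 libraries, cells were grown in 10% serum, and siRNA was used at 40 nM for 48 h. Presence of MYC and transfection therefore changed together within each set, in opposite senses in the pair of sets, and their parts in a MYC comparison cannot be told apart within a set. The labels number the replicates of a group without saying that they were grown separately, so p-values measure the spread between these libraries, which may be technical.

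Deposited values were normalised log2 values. Off the log scale a library summed to 8.63e+07 to 9.40e+07 in the 6-library set and to 1.36e+08 to 1.61e+08 in the 12-library set, so levels were compared only within a set, and sequencing depth is unknown. A gene was called changed at a log2FC of at least 0.585 in size, which is 1.5-fold, together with an adjusted p of at most 0.01 from limma over all 13188 genes. Ahr, the target of the siRNAs, lay at 13.22 to 13.34 with siCtrl, 11.97 to 12.03 with siAHR-2 and 11.76 to 11.95 with siAHR-5. The rat Myc row was lower in the groups with human MYC (8.01 to 8.08 against 9.16 to 9.47 in the 6-library set, and 8.16 to 8.27 against 10.82 to 10.94 in the 12-library set), and since the vector carries human MYC this row is no check of it. Being well above 0 and highest in the groups without human MYC, the row does not show the endogenous transcript to be absent either, and group names are used here as labelled. Of 10 fibroblast markers, 9 were above 5 on the log2 scale in every group and Col1a2 was below 5 throughout. The summed level of these 10 was lower with MYC (19.90 to 19.99 against 20.82 to 20.84 in the 6-library set, and 20.23 to 20.25 against 21.95 to 22.18 in the 12-library set). Most of this sum came from Col1a1, Fn1 and Vim, and in the 6-library set group means of Vim (18.47 against 18.34), Col3a1 (16.99 against 15.69), Pdgfra (14.42 against 14.17) and S100a4 (15.95 against 15.78) were higher with MYC. Among 6 macrophage markers with a row, the summed level was also lower with MYC (10.58 to 10.68 against 11.40 to 11.57, and 10.24 to 10.49 against 10.93 to 11.02) and came mostly from Cd14, whereas Cd68 was higher with MYC (group means of 7.46 against 7.11 and 7.21 against 6.94). Among 4 epithelial markers with a row, the summed level was higher with MYC (8.63 to 8.81 against 8.18 to 8.25, and 8.77 to 9.11 against 7.76 to 7.92), with group means of Krt8 at 7.78 against 6.08 and 8.87 against 7.70. Krt19 was lower with MYC in the 6-library set (7.44 against 7.71) and at 2.43 against 2.42 in the 12-library set, and Epcam and Cdh1 were below 5 in every group. Endothelial markers summed to 7.86 to 7.87 with MYC against 8.03 to 8.15 in the 6-library set and overlapped in the 12-library set. The sum of 2 hepatocyte markers was lower with MYC (8.09 to 8.30 against 8.69 to 8.77, and 8.43 to 8.47 against 8.97 to 9.21). It came mostly from Tf. The sum of 2 erythroid markers was lower with MYC in the 6-library set (5.53 to 5.59 against 5.79 to 5.84) and overlapped in the 12-library set. What these shifts contribute to the changes below was not tested, and in bulk RNA fewer cells of a type and less RNA per cell cannot be told apart.

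As background, the transferrin receptor encoded by Tfrc takes up iron-loaded transferrin by endocytosis, the ferrireductase STEAP3 reduces ferric to ferrous iron in the endosome, and the transporter DMT1, encoded by Slc11a2, moves it into the cytosol. Ferritin is a shell of heavy chains (Fth1), which oxidise iron, and light chains (Ftl1), which help to lay it down as mineral. Ferroportin, encoded by Slc40a1, exports iron. Iron regulatory proteins, IRP1 from Aco1 and IRP2 from Ireb2, bind iron-responsive elements when iron is scarce, which stabilises Tfrc mRNA and blocks translation of ferritin and ferroportin mRNA. With iron in supply IRP1 carries an iron-sulfur cluster and works as the cytosolic aconitase, and IRP2 is degraded. Translation and protein stability, where much of this control acts, are not measured by RNA-seq. MYC binds E-box sequences, and ligand-bound AHR binds a GCGTG core, each with a partner protein.

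Promoter sequences were available in RefSeq (GRCr8) for 6 of the 8 genes and were searched on both strands, in the 250 bases before the start that the table uses, for 4 E-box forms and for GCGTG. Slc11a2 had 2 promoters, so the 6 genes had 7 windows, whereas shares of all promoters count each window. The E-box forms were the canonical CACGTG, and as variants CACGCG in one case, CAAGTG in another and CACCTG in the last. On the opposite strand GCGTG reads CACGC, which is also the beginning of CACGCG. An E-box form was found in 2 of the 6 genes, against 34.9% of 33469 rat promoters, and none of the 6 held the canonical CACGTG, which 5.59% of promoters hold. The promoters of the 3 genes called in both MYC comparisons for which RefSeq gave an entry are shown, 5′ to 3′ along the strand of the gene, with matches in capitals. All 3 lie on the minus strand, at chr11:81690319-81690568 for Tfrc, chr9:55543461-55543710 for Slc40a1 and chr13:33944357-33944606 for Steap3.
Tfrc: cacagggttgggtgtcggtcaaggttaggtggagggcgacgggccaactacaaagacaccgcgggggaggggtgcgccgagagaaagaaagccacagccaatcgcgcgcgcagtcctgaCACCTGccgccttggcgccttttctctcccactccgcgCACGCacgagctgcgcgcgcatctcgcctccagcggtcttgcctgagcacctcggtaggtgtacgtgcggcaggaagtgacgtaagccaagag
Slc40a1: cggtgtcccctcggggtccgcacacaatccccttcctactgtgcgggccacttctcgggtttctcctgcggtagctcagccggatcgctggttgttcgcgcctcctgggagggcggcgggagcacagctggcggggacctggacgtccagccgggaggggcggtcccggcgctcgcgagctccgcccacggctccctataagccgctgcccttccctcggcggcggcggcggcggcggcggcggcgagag
Steap3: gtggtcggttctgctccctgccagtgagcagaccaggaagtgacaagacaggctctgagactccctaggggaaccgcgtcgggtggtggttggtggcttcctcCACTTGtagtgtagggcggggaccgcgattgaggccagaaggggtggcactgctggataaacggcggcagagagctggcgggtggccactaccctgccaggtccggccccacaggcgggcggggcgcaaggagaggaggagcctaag
The Tfrc window held CACCTG 131 to 126 bases before the start and, 93 to 89 bases before it, GCGTG on the opposite strand. The Steap3 window held CAAGTG on the opposite strand, read here as CACTTG, 147 to 142 bases before the start. No searched form was in the Slc40a1 window, although Slc40a1 had the largest log2FC of the 8 genes with MYC in both sets. GCGTG was in 3 of the 6 genes (Tfrc, Aco1 and, in 1 of its 2 windows, Slc11a2), or 3 of the 7 windows, against 25.9% of all promoters. CACCTG and CAAGTG are in 15.9% and 11.7% of all promoters. These matches describe letters in a window and show no binding.

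**Figure D1:**
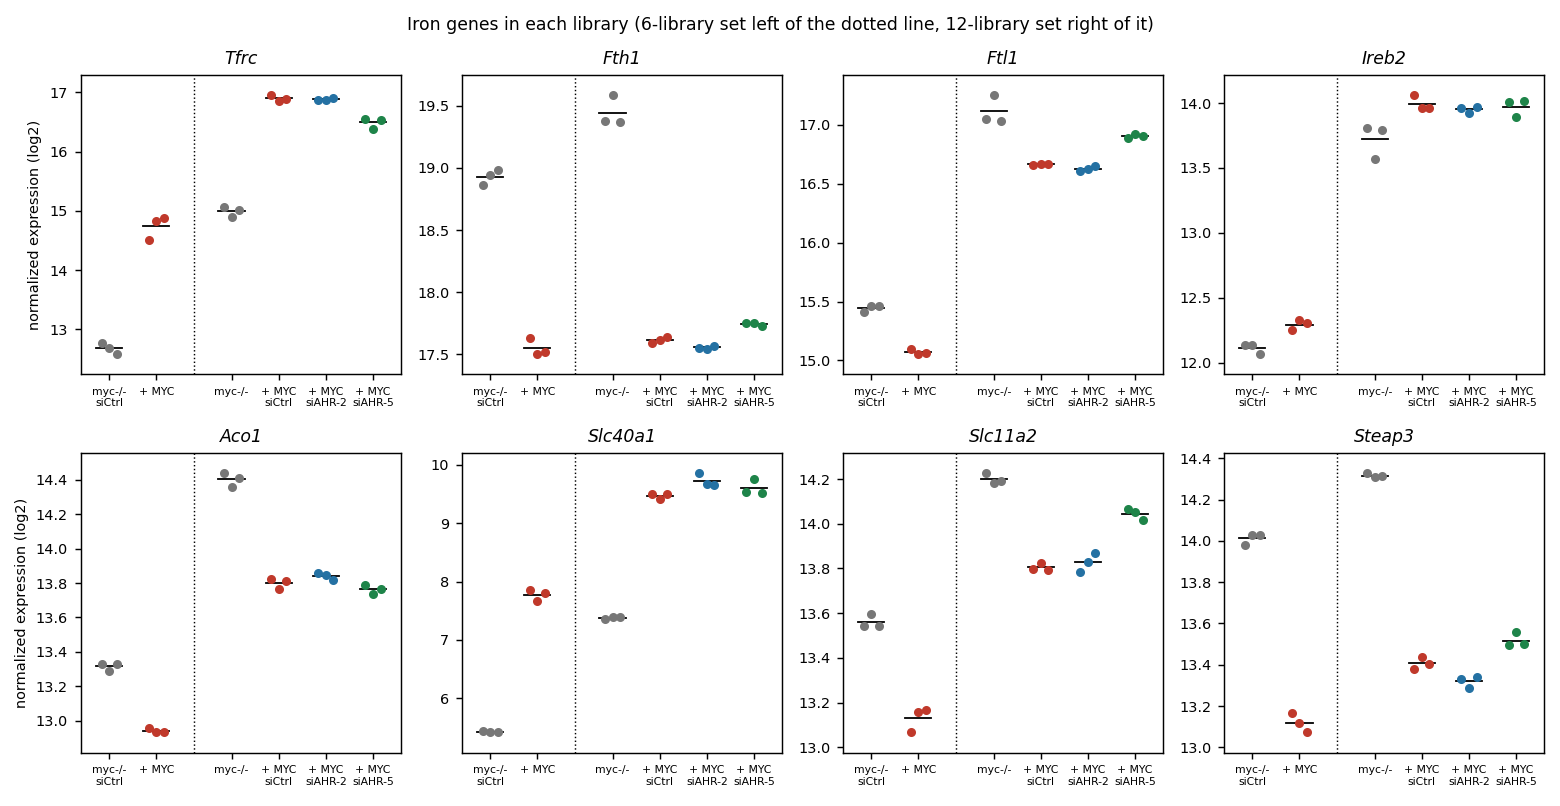
Log2 value of each iron gene in every library (points) with the group mean (bar), with the groups of the 6-library set to the left and those of the 12-library set to the right of the dotted line. In both sets Tfrc and Slc40a1 lie higher, and Fth1 and Steap3 lower, in every library with MYC than in every library without it.

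The first question was how uptake genes differed with MYC. Tfrc and the ferrireductase gene Steap3 moved in opposite directions. Tfrc, the transferrin receptor, lay at 12.77, 12.69 and 12.58 in the myc-/- siCtrl libraries and at 14.51, 14.83 and 14.87 in the myc-/- + MYC libraries. The 12-library set gave 15.06, 14.90 and 15.01 in myc-/- and 16.96, 16.85 and 16.88 in myc-/- + MYC siCtrl. Every library with MYC was thus above every library without it, in both sets. Tfrc rose by a log2FC of 2.05 (SE 0.0833, limma, adjusted p = 1.25e-09, n = 3 against 3) in the 6-library set and of 1.91 (SE 0.0538, adjusted p = 1.61e-06, n = 3 against 3) in the 12-library set.

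Steap3, which supplies the ferrous iron that DMT1 carries, lay at 13.98, 14.03 and 14.03 without MYC and at 13.16, 13.12 and 13.07 with MYC in the 6-library set. The corresponding values in the 12-library set were 14.33, 14.31 and 14.31, and 13.38, 13.44 and 13.40. The groups did not overlap, and the drop had nearly the same size in both sets. Steap3 fell by 0.89 on the log2 scale (SE 0.0326, limma, adjusted p = 5.30e-10, n = 3 against 3) in the 6-library set and fell by 0.91 (SE 0.0259, adjusted p = 1.65e-06, n = 3 against 3) in the 12-library set. Slc11a2, the DMT1 gene, was lower with MYC in every library, at 13.07 to 13.17 against 13.54 to 13.60 and at 13.79 to 13.82 against 14.18 to 14.23. Its log2FC of -0.43 and -0.40 (limma, adjusted p = 5.53e-07 and 3.54e-05) passed the p cutoff and stayed under 1.5-fold.

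Storage was the next step, and the heavy chain of ferritin fell much further than the light chain. Fth1 lay at 18.86, 18.94 and 18.98 in myc-/- siCtrl and at 17.63, 17.50 and 17.52 in myc-/- + MYC. Its values in the other set were 19.37, 19.59 and 19.37 in myc-/- and 17.59, 17.62 and 17.64 in myc-/- + MYC siCtrl. No library with MYC reached the lowest library without it. Fth1 fell by 1.38 on the log2 scale (SE 0.0433, limma, adjusted p = 1.60e-10, n = 3 against 3) in the 6-library set and fell by 1.83 (SE 0.0703, adjusted p = 4.97e-06, n = 3 against 3) in the 12-library set. By its mean log2 value over all libraries of a set, with and without MYC, it stood at the 99.9th percentile of genes in the 6-library set and the 99.8th in the 12-library set.

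Ftl1, the light chain, lay at 15.41, 15.46 and 15.47 without MYC and at 15.10, 15.05 and 15.06 with it in the 6-library set. Values in the other set were 17.05, 17.26 and 17.04 without MYC and 16.66, 16.67 and 16.67 with it. These groups did not overlap either, but the gap was small. The log2FC was -0.37 (SE 0.0285, limma, adjusted p = 2.73e-07) and -0.45 (SE 0.0646, limma, adjusted p = 0.00129), under the 1.5-fold cutoff in both sets. RefSeq lists 6 further entries named for Fth1, 5 of them pseudogenes, and 21 for Ftl1, 14 of them pseudogenes, so reads of both ferritin genes may have been shared with near-identical copies.

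The balance of the chains was read inside each library as the log2 difference Fth1 minus Ftl1, whose shift between groups does not depend on the length of either mRNA. It was 3.45, 3.48 and 3.52 in myc-/- siCtrl and 2.53, 2.45 and 2.46 in myc-/- + MYC, a 2.00-fold shift towards the light chain. The 12-library set gave 2.32, 2.33 and 2.33 in myc-/- and 0.932, 0.947 and 0.970 in myc-/- + MYC siCtrl, a shift of -1.38 or 2.60-fold. Groups were fully separated in both sets, and the exact two-sided permutation test gave p = 0.1, the smallest value that 3 against 3 libraries allow. The same reading of Tfrc minus Fth1, uptake receptor against storage chain, shifted by 3.43 in the 6-library set and 3.73 in the 12-library set, which is 10.8-fold and 13.3-fold, again with exact permutation p = 0.1. Tfrc was higher and Fth1 lower without overlap in both sets, so this separation was already given by the single genes and adds no test.

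**Figure D2:**
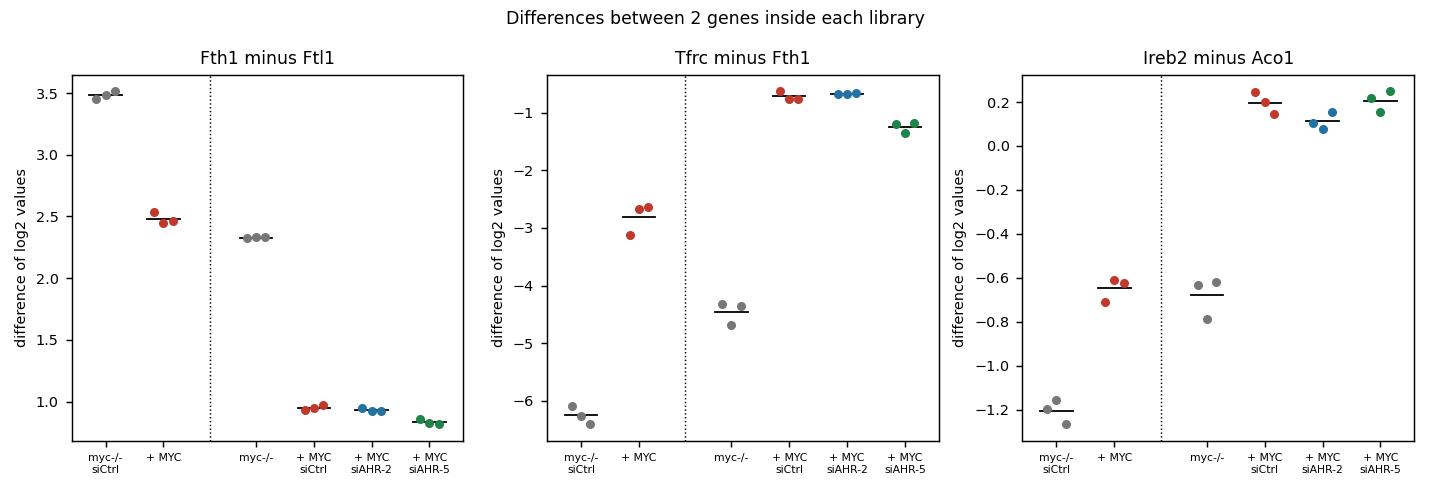
Log2 difference between a pair of genes inside each library (points, by group, with the 6-library set and the 12-library set apart) for Fth1 minus Ftl1, Tfrc minus Fth1 and Ireb2 minus Aco1. With MYC the ferritin difference narrows in both sets, and the Tfrc to Fth1 difference moves up by 3.43 and 3.73.

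Export and uptake receptor rose together. Slc40a1, which encodes ferroportin, lay at 5.43, 5.41 and 5.42 in myc-/- siCtrl and at 7.85, 7.66 and 7.80 in myc-/- + MYC. It reached 7.36, 7.39 and 7.40 in the myc-/- libraries of the other set and 9.49, 9.41 and 9.50 in myc-/- + MYC siCtrl. All libraries with MYC were above all libraries without it within a set. Slc40a1 rose by a log2FC of 2.35 (SE 0.0608, limma, adjusted p = 3.44e-11, n = 3 against 3) and 2.09 (SE 0.0507, adjusted p = 9.50e-07, n = 3 against 3). Its mean over all libraries of a set was low among measured genes, at the 24.5th percentile in the 6-library set and the 33.7th in the 12-library set. Slc40a1 is also strongly expressed by macrophages. Of 6 macrophage markers, group means over all 6 groups ran from 10.0 to 11.3 for Cd14, 6.94 to 7.46 for Cd68, 5.202 to 5.469 for Spi1, 4.97 to 6.10 for Csf1r, 2.84 to 4.62 for Ptprc and 1.99 to 2.72 for Itgam, and their part in the rise of Slc40a1 was not tested.

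Of the sensors, Aco1 was lower and Ireb2 slightly higher with MYC. Aco1, the gene for IRP1 and cytosolic aconitase, lay at 13.33, 13.29 and 13.33 without MYC and at 12.96, 12.93 and 12.93 with it in the 6-library set. Its values in the other set were 14.44, 14.36 and 14.41, and 13.82, 13.76 and 13.81. The groups were separate in both sets. In the 12-library set Aco1 fell by 0.60 on the log2 scale (SE 0.0322, limma, adjusted p = 1.73e-05), just past 1.5-fold at 1.52-fold, and its log2FC became -0.50 after quantile normalisation and -0.56 after centring libraries on their median, both short of the cutoff. In the 6-library set the log2FC was -0.37 (SE 0.0293, limma, adjusted p = 3.37e-07), under the fold cutoff.

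Ireb2, the gene for IRP2, lay at 12.13, 12.13 and 12.07 without MYC and at 12.25, 12.33 and 12.31 with it in the 6-library set, and at 13.81, 13.57 and 13.79 against 14.06, 13.96 and 13.96 in the 12-library set. The groups did not overlap, although myc-/- replicate 2 lay below replicates 1 and 3. That library was also the highest of its group for Fth1 and Ftl1. Over all genes its median log2 difference was 0.0886 from replicate 1 and 0.0866 from replicate 3, against 0.0357 between those. The log2FC was 0.18 (SE 0.0368, limma, adjusted p = 8.12e-04) and 0.27 (SE 0.0723, limma, adjusted p = 0.0171), small in both sets and past the p cutoff in the 6-library set. Inside each library Ireb2 minus Aco1 shifted by 0.56 and 0.88 with MYC, or 1.47-fold and 1.84-fold, with separate groups and exact permutation p = 0.1 in both sets. That separation adds no test either, since Ireb2 was higher and Aco1 lower without overlap in both sets.

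**Figure D3:**
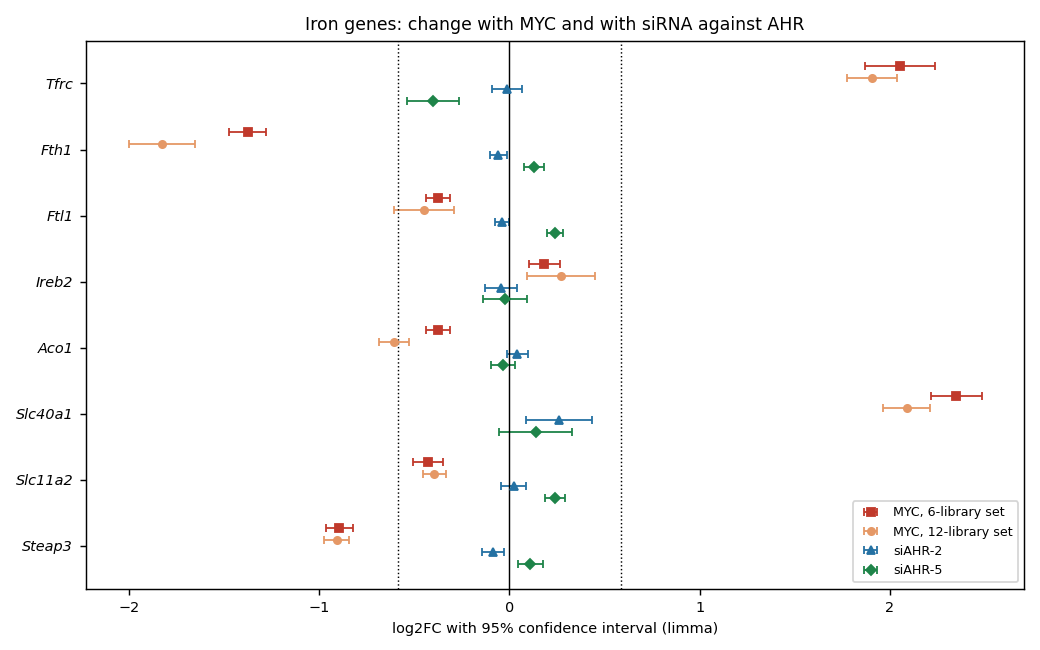
Log2FC of each iron gene with its 95% confidence interval from limma, for MYC in the 6-library set (squares) and the 12-library set (circles) and for siAHR-2 (triangles) and siAHR-5 (diamonds) against siCtrl. Dotted lines mark 1.5-fold. Tfrc and Slc40a1 lie far to the right and Fth1 far to the left with MYC, whereas all siRNA points lie inside the dotted lines.

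Counted over the list, 4 of 8 genes passed both cutoffs in the 6-library set, against 26.8% of all genes. These were 2 higher genes (12.5% of all genes were called higher) and 2 lower genes (14.3% were called lower). In the 12-library set, 5 of 8 passed, against 25.5% of all genes, with 2 higher (10.8% of all genes) and 3 lower (14.7%). Tfrc, Slc40a1, Fth1 and Steap3 were the 4 genes called in both sets in the same direction, as were 15.8% of all genes. At an adjusted p below 0.05 with no fold cutoff all 8 passed in both sets, but so did 76.2% and 64.7% of all genes. Likewise all 8 were without overlap between groups in both sets, as were 78.8% and 70.5% of all genes, so separation alone says little about these genes. The median log2FC of the list was -0.37 in the 6-library set and -0.42 in the 12-library set, against -0.00 over all genes in each set.

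Whether the size of the MYC change differed between the sets was tested as an interaction over 12 libraries in 4 groups. None of the 8 passed both cutoffs, where 16.5% of all genes did, and limma gave 3 of 8 at an unadjusted p below 0.05, against 7862 of all 13188. The same 3 had an adjusted p below 0.05, against 54.9% of all genes. Fth1 fell further in the 12-library set, by a difference of -0.45 (SE 0.0841, limma, adjusted p = 3.42e-04), and Aco1 likewise, by -0.23 (SE 0.0486, adjusted p = 9.85e-04). The rise of Slc40a1 was smaller in the 12-library set by -0.26 (SE 0.0859, adjusted p = 0.0185). For Tfrc the difference was -0.15 with a 95% interval of -0.39 to 0.09, and it ran from -0.263 to -0.0785 when each library was left out in turn. For Steap3 the difference was -0.01 with an interval of -0.12 to 0.09, or 0.07 after centring on medians. The sets also differ in which arm was transfected and in their scaling, which cannot be told apart from this difference.

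The other question was whether iron genes depended on AHR in cells with MYC, and all changes with siRNA in the 8 genes were under 1.5-fold. Both siRNA comparisons and the MYC comparison in the 12-library set share the same 3 siCtrl libraries. With siAHR-2 limma called 0 of 8 genes past both cutoffs, against 0.470% of all genes, and gave 4 of 8 an unadjusted p below 0.05, as it did 5326 of all 13188. At an adjusted p below 0.05 with no fold cutoff 2 of 8 passed, against 29.3% of all genes, and 4 of 8 did not overlap between groups, against 43.3%. Slc40a1 lay at 9.86, 9.67 and 9.65 with siAHR-2, above the siCtrl libraries, with a log2FC of 0.26 (SE 0.0693, limma, adjusted p = 0.0413). Steap3 lay at 13.33, 13.29 and 13.34, just below siCtrl, with a log2FC of -0.09 (SE 0.0230, limma, adjusted p = 0.0397). Fth1 and Ftl1 had log2FC of -0.06 and -0.04 (limma, adjusted p = 0.0613 and 0.101), and with quantile normalisation both became 0.06. Tfrc lay at 16.88, 16.87 and 16.91 and overlapped siCtrl, with a log2FC of -0.01, a 95% interval of -0.09 to 0.07 and a value of 0.06 after quantile normalisation.

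With siAHR-5 limma likewise called 0 of 8 genes, against 2.33% of all genes, with 5 of 8 at an unadjusted p below 0.05, as were 6300 of all 13188. The same 5 had an adjusted p below 0.05, against 39.2% of all genes, and 6 of 8 did not overlap between groups, against 50.5%. Tfrc lay at 16.56, 16.39 and 16.54, below all siCtrl libraries, with a log2FC of -0.40 (SE 0.0549, limma, adjusted p = 0.00330). Ftl1 lay at 16.89, 16.92 and 16.91, above siCtrl, with a log2FC of 0.24 (SE 0.0169, limma, adjusted p = 5.30e-04). Tfrc was thus a little lower and the ferritin light chain a little higher than with siCtrl, each by less than 1.5-fold. With siAHR-5 the summed macrophage markers were also higher than with siCtrl (10.77 to 10.89 against 10.24 to 10.49), as were endothelial markers (7.97 to 8.14 against 7.83 to 7.90). The fibroblast sum was lower (19.955 to 19.97 against 20.23 to 20.25), but most single fibroblast markers were not. Group means were lower for Vim (18.98 against 19.45), the highest of them, Fn1 (18.51 against 18.61) and Pdgfra (13.14 against 13.21). They were higher for Thy1 (12.14 against 11.39), Pdgfrb (12.32 against 11.77) and Col1a1 (15.27 against 15.06). S100a4 (15.45 against 15.34), Dcn (6.88 against 6.76) and Col3a1 (14.82 against 14.80) were slightly higher, and Col1a2 was at 3.64 in both. With siAHR-2 the fibroblast sum was lower too (19.99 to 20.03). What these shifts contribute was not tested. Slc11a2 lay at 14.07, 14.05 and 14.02, also above siCtrl, with a log2FC of 0.24 (SE 0.0202, limma, adjusted p = 7.59e-04). Fth1 had a log2FC of 0.13 (limma, adjusted p = 0.00598) and Steap3 of 0.11 (adjusted p = 0.0235). Slc40a1 lay at 9.54, 9.75 and 9.52, with a log2FC of 0.14 (limma, adjusted p = 0.215) that became -0.02 after quantile normalisation. That log2FC ran from 0.0619 to 0.179 when each library was left out in turn. Aco1 and Ireb2 overlapped siCtrl with both siRNAs, with log2FC from -0.04 to 0.04 and limma adjusted p from 0.211 to 0.747.

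The siRNAs share a target, Ahr was lower with both, and the level of some iron genes differed between them by less than 1.5-fold. Set against siAHR-2, siAHR-5 gave 0 of 8 genes past both cutoffs with limma, against 2.18% of all genes. At an unadjusted p below 0.05 there were 6 of 8, and 6176 of all 13188, and the same 6 had an adjusted p below 0.05, against 39.1% of all genes, while 6 of 8 did not overlap, against 49.5%. Tfrc was lower with siAHR-5 than with siAHR-2 by -0.39 (SE 0.0477, limma, adjusted p = 0.00211). Ftl1 was higher by 0.28 (SE 0.0167, limma, adjusted p = 2.38e-04), Slc11a2 by 0.22 (adjusted p = 0.00235), Steap3 by 0.20 (adjusted p = 0.00238) and Fth1 by 0.19 (adjusted p = 4.46e-04). Aco1 was lower by -0.08 (SE 0.0201, limma, adjusted p = 0.0322). The log2FC of -0.40 for Tfrc with siAHR-5 was therefore not shared by siAHR-2. Within libraries the difference Tfrc minus Fth1 shifted by -0.53 with siAHR-5 (separate groups, exact permutation p = 0.1) and by 0.05 with siAHR-2 (overlapping groups, exact permutation p = 0.4). With siAHR-5 Tfrc was below and Fth1 above every siCtrl library, so that separation was already given by the single genes.

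Ordered over the 12-library set, Tfrc was lowest in myc-/- (mean 14.99), next with siAHR-5 (16.50), and highest with siAHR-2 (16.89) and siCtrl (16.90), which overlapped. Fth1 ran the other way, with siAHR-2 (17.56), siCtrl (17.61) and siAHR-5 (17.74) close together and myc-/- (19.44) far above. For Slc40a1 myc-/- was lowest (7.38), followed by siCtrl (9.47), siAHR-5 (9.60) and siAHR-2 (9.73), of which the siRNA groups overlapped. Ftl1, Aco1, Slc11a2 and Steap3 were likewise highest in myc-/-, and Ireb2 was lowest there. In all 8 genes the myc-/- group stood at one end of the order and did not overlap any other library of the set, as was so for 56.5% of all genes. Standard deviations within groups of 3 ran from 0.0066 to 0.20 on the log2 scale over these 8 genes.

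The wider iron pathway was read from 6 lists of related genes, of which 68 of 73 genes had a row. Past both cutoffs were 6 higher and 8 lower of 68 in the 6-library set, which is 8.82% and 11.8% against 12.5% and 14.3% of all genes. The 12-library set had 6 higher and 14 lower, which is 8.82% and 20.6% against 10.8% and 14.7%. With quantile normalisation these counts were 7 and 8 in the 6-library set and 9 and 13 in the 12-library set, and with median centring 6 and 11, and 7 and 13. The lists below are read against the shares of all genes given here. The median log2FC of the 68 was -0.05 and -0.00. Among 14 other genes of uptake and reduction, 2 rose and 4 fell in the 6-library set (14.3% and 28.6% of the list, against 12.5% and 14.3% of all genes), and 3 rose and 7 fell in the 12-library set (21.4% and 50%, against 10.8% and 14.7%). In the 6-library set Snx3 was also called higher with quantile normalisation (0.72), and Tf lower with median centring (-0.61). Tf lost its call in the 12-library set with quantile normalisation (-0.58). The relatives of Steap3 fell in both sets. Steap2 had a log2FC of -1.70 and -1.72, Steap4 of -1.70 and -1.10 and Steap1 of -1.16 and -0.94 (limma, adjusted p from 1.22e-12 to 6.98e-05), so that all 4 STEAP family genes with a row, Steap3 included, were lower with MYC. Hfe, whose product binds the transferrin receptor, rose by 1.41 and 1.63 (limma, adjusted p = 2.94e-09 and 2.88e-06). Scara5, a receptor that can take up ferritin, had a log2FC of -0.57 in the 6-library set, short of the fold cutoff (past it at -0.62 with quantile normalisation), and fell by 2.40 in the 12-library set (limma, adjusted p = 2.16e-06). Tfr2, the gene of another transferrin receptor, fell by 1.38 in the 6-library set and rose by 1.60 in the 12-library set (limma, adjusted p = 4.97e-11 and 5.04e-06).

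In the list of 8 genes for iron sensing, oxidation and export, 1 fell and 0 rose in each set by limma (12.5% of the list lower, against 14.3% and 14.7% of all genes), while Flvcr2 was also called, as higher, in the 12-library set after quantile normalisation (0.65). It was Heph, which encodes hephaestin, a ferroxidase that works with ferroportin, and it fell, with a log2FC of -2.204 and -3.34 (limma, adjusted p = 2.22e-11 and 8.09e-07) where Slc40a1 rose. Of 6 genes for iron chaperones, ferritin turnover and heme breakdown, 1 fell in the 6-library set and 2 in the 12-library set (16.7% and 33.3% of the list). Pcbp2 was also called, as higher, in the 12-library set after quantile normalisation (0.64). Hmox1, whose enzyme frees iron from heme, fell, with a log2FC of -0.99 and -1.29 (limma, adjusted p = 1.08e-09 and 8.08e-06). It was also the one of 68 pathway genes called with siAHR-2 (1.47%, against 0.470% of all genes), where it rose by 0.66 (limma, adjusted p = 3.73e-04, but 0.0126 with a replicate block), and its log2FC with siAHR-5 was 0.57, just under the cutoff.

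Of 26 genes for mitochondrial iron import and iron-sulfur cluster assembly, 3 rose and 2 fell in the 6-library set (11.5% and 7.69%, against 12.5% and 14.3% of all genes), and 1 rose and 2 fell in the 12-library set (3.85% and 7.69%, against 10.8% and 14.7%). In the 12-library set Hspa9 was also called higher with quantile normalisation (0.80) and median centring (0.61), and Fdx1 lost its call with median centring (-0.57). In the 6-library set Mms19 lost its call with quantile normalisation (-0.48). Abcb10, an inner membrane transporter, fell, with a log2FC of -0.86 and -1.17 (limma, adjusted p = 1.46e-09 and 1.21e-06), and Nubpl, an iron-sulfur assembly factor of respiratory complex I, rose, with a log2FC of 0.85 and 0.93 (limma, adjusted p = 4.33e-07 and 5.10e-05). Of 10 genes for heme synthesis, 1 rose in the 6-library set (10% of the list), and 2 rose and 2 fell in the 12-library set (20% each). Alad was also called, as lower, in the 6-library set with median centring (-0.60). Alas2 could hardly be called in the 6-library set, with group means of 0.33 and 0.32. Abcb6, a porphyrin transporter, rose by 0.73 in both sets (limma, adjusted p = 1.52e-07 and 8.67e-06). Of 4 other mRNAs known to carry an iron-responsive element, limma called 0 in either set. Among them Epas1 could hardly be called, with low group means (0.66 and 0.63 in the 6-library set, 2.46 and 2.50 without and with MYC in the 12-library set).

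**Figure D4:**
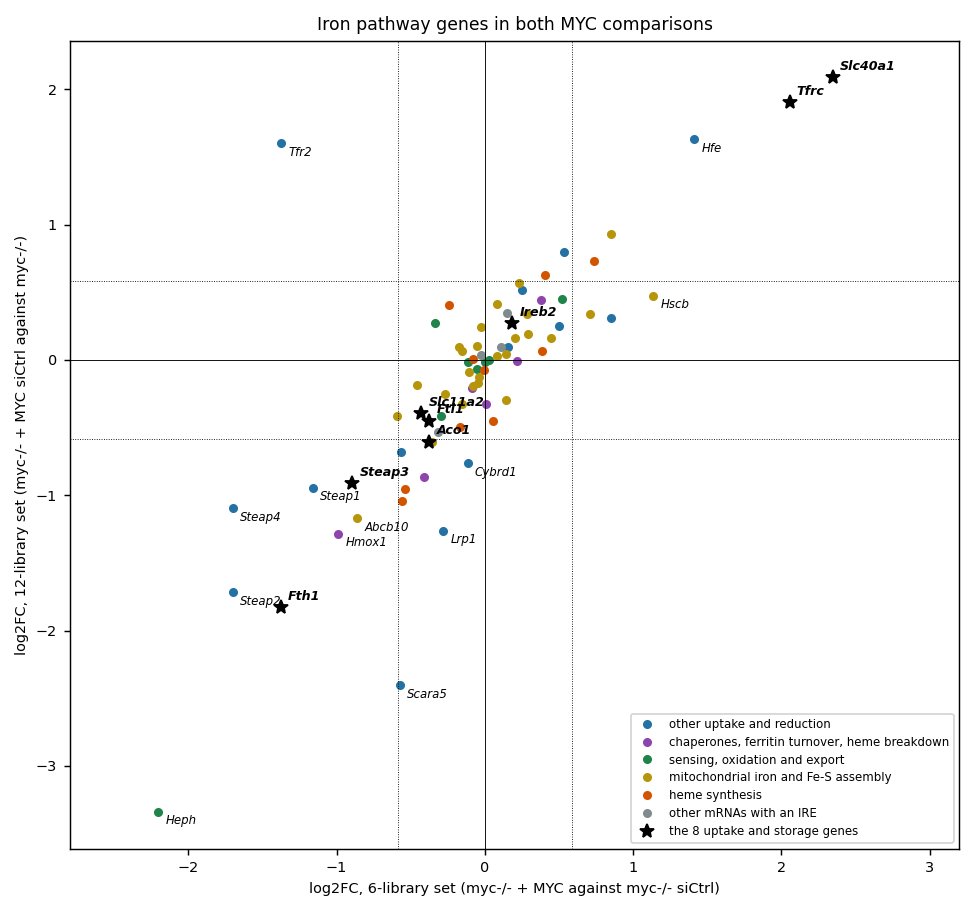
Log2FC with MYC in the 6-library set (x axis) and the 12-library set (y axis) for the 8 iron genes (stars) and 68 other iron pathway genes (points, coloured by list). Dotted lines mark 1.5-fold. Slc40a1 and Tfrc lie at the top right and Fth1 at the lower left with the STEAP genes and Heph, and Tfr2 lies far from the rest at the upper left.

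The genes most alike in pattern were found by Pearson r of values centred on the mean of their set, over 18 libraries, and are given as a description. For Tfrc they were Nus1, Rbm26 and Ddx21 (r = 0.994 to 0.995), for Fth1 P4ha2, Mmp9 and B4galt5 (0.997 to 0.998), and for Slc40a1 Mab21l2, Slc9a3r2 and Nutm1 (0.996). Steap3 went with Wbp1l, Nfkb2 and Map6 (0.996 to 0.997), and Aco1 with Mapkapk3, Fhl1 and Plce1 (0.994 to 0.995). Lower values were found for Slc11a2, with Ptprn, Lhx6 and Dhrs9 (0.976 to 0.987), for Ftl1, with Lfng, Ppap2a and Calhm2 (0.976 to 0.977), and for Ireb2, with Qser1, Trpm7 and Mpdz (0.966 to 0.975). All these values share the same libraries and the same split by MYC, which by itself gives high r.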

How the data were processed

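Rat fibroblast RNA was measured in 18 libraries of 6 groups. Reads were quality-filtered by the authors (NGS-QC-Toolkit), mapped with HISAT2 2.1.0 on the rn6 build, freed of genes under 10 reads and normalised with DESeq2. The read counter and annotation are not given in the sources used here. The deposited values are log2 values named as log CPM, but off the log scale a library sums to 8.63e+07 to 1.61e+08, where CPM would sum to 1e+06, so they are not CPM, and their exact transformation and the sequencing depth are unknown. They were used as deposited, with no pseudocount or filter.

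Groups were compared within a set with limma 3.58.1 in R 4.3.3 (lmFit, then eBayes with trend), fitting only the libraries compared, two-sided, with Benjamini-Hochberg adjustment over 13188 genes. Calls needed a 1.5-fold change and an adjusted p of at most 0.01. The script was tested on simulated data. Differences between genes inside a library were compared by exact permutation. Alternatives were quantile normalisation, centring on library medians, a floor of 1 on the mean log2 value, a pseudocount of 1 and 1 fit over 18 libraries. Further ones were no mean-variance trend, an adjusted p below 0.05 without a fold cutoff, a replicate block and leaving out each library. The genes named were the 8 listed genes, the 3 genes most alike in pattern to each, the targeted genes and cell type markers. From each pathway list at most 3 called genes in a comparison were named, with close relatives added for their role. All called pathway genes were named for the difference between sets, and some others because their call depended on the scaling. The genes and lists were chosen with earlier results of these data known. Promoter sequences are RefSeq's on GRCr8. Figures were drawn with matplotlib 3.10.9.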

Additional observations from a re-analysis of the deposited data

Results flagged for a closer look

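The effect of MYC differed between the sets, by the interaction in limma and past both cutoffs, for 9 of 68 genes of the wider pathway (5.88% with a difference above 0 and 7.35% below 0, against 6.79% and 9.67% of all genes) and for both targeted genes, each value being the log2FC of the 12-library set minus that of the 6-library set. Tfr2 differed by 2.98 (adjusted p = 4.00e-13), having opposite directions in the sets. Scara5 differed by -1.83 (adjusted p = 4.75e-09), Heph by -1.14 (adjusted p = 1.48e-07), Lrp1 by -0.98 (adjusted p = 4.87e-05), Hscb by -0.66 (adjusted p = 6.85e-06) and Cybrd1 by -0.65 (adjusted p = 3.83e-06). Alas1 differed by 0.65 (adjusted p = 3.00e-07), Steap4 by 0.61 (adjusted p = 0.00673) and Cp by 0.61 (adjusted p = 0.00118). The rat Myc row differed by -1.42 (adjusted p = 2.85e-08) and Ahr by 0.88 (adjusted p = 3.50e-06). Cybrd1 was short of 1.5-fold with quantile normalisation (-0.58) and median centring (-0.56), and Hscb with median centring (-0.58). None of the 8 iron genes was among them.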

How the results depend on the processing

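The counts of called iron genes (4, 5, 0, 0, 0 and 0 for MYC in the 6-library set, MYC in the 12-library set, siAHR-2, siAHR-5, siAHR-5 against siAHR-2 and the difference between sets) became 8, 8, 2, 5, 6 and 3 at an adjusted p below 0.05 without a fold cutoff, and counts over all genes went from 3538, 3361, 62, 307, 287 and 2171 to 10051, 8538, 3860, 5169, 5151 and 7235. Leaving out each library in turn changed none of these 6 counts of iron genes. The call of Aco1 in the 12-library set was lost with quantile normalisation (-0.50) and with median centring (-0.56), and the other iron gene calls held under both. Signs turned only for small values. With siAHR-2 and quantile normalisation Tfrc, Fth1 and Ftl1 became 0.0552, 0.0632 and 0.0581, and with median centring Slc11a2 became -0.00942. With siAHR-5 and quantile normalisation Ireb2 became 0.0023 and Slc40a1 -0.0150. With median centring Ireb2 became -0.0096 between the siRNAs, and the differences between sets of Ftl1 and Steap3 became 0.0105 and 0.0708. Over fits that each omitted 1 library, the lowest and highest values were -0.0352 and 0.0183 for Tfrc with siAHR-2, -0.00010 and 0.0438 for Slc11a2 with siAHR-2, -0.0459 and 0.0160 for Ireb2 with siAHR-5, -0.0034 and 0.0586 for Ireb2 between the siRNAs and -0.0375 and 0.0084 for the Steap3 difference between sets. The share of all calls that were higher went from 46.7% to 51.7% and from 42.4% to 52.0% with MYC in the 6-library and 12-library sets under quantile normalisation, from 33.9% to 22.1% with siAHR-2 and from 63.5% to 45.9% with siAHR-5 under median centring (50.2% under quantile normalisation), and from 41.3% to 52.6% for the difference between sets. The causes were not tested. Deviations of same-numbered replicates had a mean r of -0.0287, -0.0136, 0.0101, 0.0974 and 0.0889 in the 5 comparisons, with 0, 1, 2, 4 and 4 of 6 libraries closest to their own number. Single pairs ran from -0.256 to 0.242 for MYC in the 12-library set, -0.065 to 0.218 with siAHR-5 and -0.0083 to 0.143 between the siRNAs. The replicate block changed no call of an iron gene (counts 4, 5, 0, 0 and 0), and took the calls over all genes with siAHR-2 from 62 to 0. Depth is unknown, so it set no limit that could be stated for Slc40a1, the lowest of the 8. In myc-/- siCtrl Slc40a1 lay at 5.41 to 5.43 with its smallest SD within a group (0.0104). Whether these values were near a floor, which would affect its fold change, was not tested.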

Other observations

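Among 10 genes of heme synthesis, 1 passed both cutoffs between the siRNAs against AHR, where 2.18% of all genes did. It was Fech, whose enzyme inserts iron into protoporphyrin. Fech fell by 0.71 with siAHR-5 (limma, adjusted p = 2.58e-04), had a log2FC of 0.56 with siAHR-2, under the fold cutoff, and was lower with siAHR-5 than with siAHR-2 by -1.27 (limma, adjusted p = 5.95e-05). Cpox, which acts earlier in the pathway, had the same log2FC of 0.47 with both, under the cutoff, and a difference between them of 0.00 with a 95% interval of -0.03 to 0.03. Outside heme synthesis, Hscb, a chaperone for iron-sulfur clusters, was lower with siAHR-5 than with siAHR-2 by -0.68 (limma, adjusted p = 3.83e-04), and Narfl, of the cytosolic iron-sulfur machinery, by -0.59 (limma, adjusted p = 3.70e-04). Against siCtrl, Hscb and Narfl had a log2FC of -0.5848 and -0.565 with siAHR-5, just under the fold cutoff. Both were called lower there with quantile normalisation (-0.64 and -0.59) and with median centring (-0.64 and -0.62). Scara5 rose by 1.02 with siAHR-5 against siCtrl (limma, adjusted p = 4.24e-04) and was higher than with siAHR-2 by 1.24 (limma, adjusted p = 2.38e-04).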
